A study of Mus musculus with 3 samples.

Results

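The data described here concern 8 collagen genes, 5 that encode fibrillar chains (*Col1a2*, *Col3a1*, *Col5a1*, *Col5a2* and *Col11a1*) and 3 that encode chains of type VI collagen (*Col6a1*, *Col6a2* and *Col6a3*). They were chosen by name from the 9781 gene rows used of a single-cell RNA-seq (scRNA-seq) table. Their mRNA was followed across fibroblast, smooth muscle, pericyte and glial cells of the developing mouse prostate. *Col1a1* and other collagen genes that have no row among those used were not analysed here.

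Fibrillar collagens are made as procollagen chains that wind into triple helices in the endoplasmic reticulum, are secreted, lose their propeptides and assemble into the striated fibrils that give connective tissue its tensile strength. The product of *Col1a2* pairs with that of *Col1a1* in type I collagen, and *Col3a1* encodes the single chain of type III collagen, which is plentiful in compliant tissues and in organs that are still growing. *Col5a1*, *Col5a2* and *Col11a1* encode minor fibrillar chains that enter the core of the fibril and set its initiation and width. Type VI collagen is a separate family that forms beaded microfilaments near cell surfaces and basement membranes, and its classical monomer joins the chains encoded by *Col6a1*, *Col6a2* and *Col6a3*. In the prostate, stromal fibroblasts and smooth muscle surround the epithelial ducts, and the fibroblasts are regarded as the main source of this interstitial matrix.

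The study profiled 3 groups with 1 library each, namely the urogenital sinus (UGS, the structure of the embryo that gives rise to the prostate) of males at E18.5, the prostate at postnatal day 14 and the prostate at postnatal day 35, and the labels call the disease state of each Normal. Mice of the study were of mixed C57BL/6 and 129S1/SvImJ background according to its methods. The labels give neither genotype nor treatment nor the number of animals behind a library, although the reference used for counting held transgene sequences, among them a green fluorescent protein reporter that *Osr1*-driven Cre recombinase switches on. Barcodes of the cells ended in 1, 2 or 3, called sets 1, 2 and 3 below. The smallest set holds as many cells as the study states for its embryonic library, while neither larger set matches the count stated for a postnatal library. As a cell count is no label and the labels hold no key to the endings, no set was assigned to an age, and values of the sets are given side by side without a comparison between ages.

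The 8 genes lie on 5 chromosomes. In the GRCm38.p6 annotation of RefSeq, *Col3a1* (chromosome 1, 45311538 to 45349706) and *Col5a2* (chromosome 1, 45374331 to 45503282) are neighbours with 24624 bases and no gene between them. *Col6a1* (chromosome 10, 76708792 to 76726044) and *Col6a2* (chromosome 10, 76595756 to 76623630) are on the same strand with 85161 bases between them. *Col6a3* is on chromosome 1 as well (90766860 to 90844001), *Col1a2* on chromosome 6 (4505618 to 4541543), *Col5a1* on chromosome 2 (27886381 to 28039510) and *Col11a1* on chromosome 3 (114030479 to 114220756).

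The promoters of the 2 most abundant members and of the least abundant are shown because *Col1a2* and *Col3a1* followed each other closely over cell classes and *Col11a1* did not. Each is the stretch of 250 bases before a transcript start, 5′ to 3′ on the gene's strand (RefSeq, GRCm38.p6), and capitals mark CCAAT, the box bound by nuclear factor Y, which reads ATTGG where it lies on the other strand, or else TATAAA, a form of the TATA box.
Col1a2, chr6:4505368-4505617: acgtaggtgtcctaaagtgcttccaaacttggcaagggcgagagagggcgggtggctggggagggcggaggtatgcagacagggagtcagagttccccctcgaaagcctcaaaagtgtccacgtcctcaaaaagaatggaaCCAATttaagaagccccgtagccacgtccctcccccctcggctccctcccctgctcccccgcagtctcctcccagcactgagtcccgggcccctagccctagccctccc
Col3a1, chr1:45311288-45311537: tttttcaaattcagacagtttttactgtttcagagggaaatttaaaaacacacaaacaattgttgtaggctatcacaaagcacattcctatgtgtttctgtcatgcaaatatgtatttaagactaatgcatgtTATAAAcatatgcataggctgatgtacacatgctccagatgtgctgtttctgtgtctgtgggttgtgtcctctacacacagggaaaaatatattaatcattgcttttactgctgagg
Col11a1, chr3:114030290-114030539: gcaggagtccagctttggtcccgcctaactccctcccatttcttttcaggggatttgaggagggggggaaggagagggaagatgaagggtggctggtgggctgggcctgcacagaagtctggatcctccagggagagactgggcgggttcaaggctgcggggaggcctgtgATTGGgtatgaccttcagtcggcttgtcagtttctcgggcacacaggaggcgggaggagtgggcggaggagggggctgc
The start used for *Col11a1* is that of a transcript which begins inside the gene bounds given above, so distances for this gene are not from the outermost start. CCAAT starts 109 bases before the start of *Col1a2* and, on the other strand, 79 bases before that of *Col11a1*. It was found in 2 of the 8 promoters listed for 7 members (*Col6a2* has 2, and none was found for *Col5a2*) and in 33.8% of the 32851 mouse promoters of the same length, both strands searched. TATAAA was found in 1 of the 8, that of *Col3a1* at 117 bases before the start, and in 12.4% of all. GGGCGG, the core of a GC box, was found in 5 of the 8 and in 32.7% of all. The *Col3a1* stretch was poor in G and C (35.2%), against 62% for *Col1a2*, 62.4% for *Col11a1* and 76.4% for *Col5a1*. These matches describe the letters only, and no binding was measured.

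In set 1 there were 766 cells, whose median count was 19357 UMIs (unique molecular identifiers, 1 for each mRNA molecule captured). Set 2 had 5350 cells and a median of 1738 UMIs, and set 3 had 8457 cells and a median of 1788 UMIs, of which 8360 cells passed a minimum of 200 genes. Sets 2 and 3 shared 13 barcodes, sets 1 and 2 shared 1, and sets 1 and 3 shared none. Rates are given in CPM, that is, UMIs of a gene over the cells of a class divided by every UMI of those cells and multiplied by 1000000. Each range in parentheses or brackets after a value is an exact 95% interval for counting error alone, since with 1 library per group there is no replicate and no test between groups.

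Cell classes were named from marker genes, and no collagen row entered the clustering (*Col15a1*, which is no member, is 1 of the 10 markers of the Tcf21-type list). Fibroblasts fell into a class led by *Dpt*, *Ptx3*, *Sult1e1* and *Lum* (Dpt-type; 155, 834 and 1169 cells in sets 1, 2 and 3) and a class led by *Fgf21*, *Lamc3*, *Mmp2* and *Tmem119* with *Tcf21* among its 10 leading genes (Tcf21-type; 202, 809 and 1459 cells). *Dpt*, which encodes dermatopontin, separated the types in each set, at 49.0, 76.1 and 387 CPM in the Dpt-type cells and 4.09, 5.15 and 52.4 CPM in the Tcf21-type cells. The second name was carried less well, because *Tcf21* stood at 350.5, 153 and 275 CPM in Tcf21-type cells against 89.9, 77.5 and 244 CPM in Dpt-type cells and 314, 104 and 105 CPM in smooth muscle-like cells, and the 10 genes of the Tcf21-type list summed to 88.6%, 149% and 87.7% of their Dpt-type level. These names therefore stand for clusters with those leading genes. Without integration of the sets, set 1 held 0 Dpt-type, 4 Tcf21-type and 5 smooth muscle-like cells, so its values for these classes rest on integration.

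Smooth muscle-like cells (102, 1618 and 1949) were led by *Car3*, *Actg2*, *Myl9* and *Tpm2*, while *Acta2*, *Myh11*, *Cnn1* and *Tagln* have no row. The 10 leading genes also hold *Tnnt2*, *Actc1*, *Tnnc2* and *Tnnt1*, which are best known from striated muscle, and *Actc1* and *Tnnt1* are also among the leading genes of an unnamed cluster with *Myod1* and *Myf5*. The 10 muscle markers of the class with a row summed to 4623, 27666 and 26685 CPM in sets 1, 2 and 3, so that the muscle signature was weaker in set 1, where the erythroid list also reached 4803 CPM in the same class. The part of these differences in the values of set 1 was not tested. Pericyte-like cells, led by *Rgs5*, were few (9, 30 and 125 cells), and the 9 cells of set 1 allow rates only. Glia-like cells (21, 186 and 241) had *Fabp7*, *Ttyh1*, *Scn7a* and *Foxd3* among their 10 leading genes. Epithelium-like (122, 1403 and 2694) and leukocyte-like cells (38, 25 and 177), which are not regarded as main sources of interstitial collagen, are given as a background beside the stromal values. Their depths differ from those of the stromal classes.

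Across the 14476 cells kept, the 8 members had 213091 UMIs, of which 75.1% lay in the 4628 fibroblast-like cells and 90.9% in fibroblast, smooth muscle, pericyte and glial classes together. *Col3a1* (92741 UMIs) and *Col1a2* (69764) made up most of them, followed by *Col6a1* (16073), *Col6a2* (11483), *Col5a2* (9853), *Col6a3* (7680) and *Col5a1* (4551). *Col11a1*, with 946 UMIs in all, was the rarest, and statements on it are the least precise. The share of a member's UMIs that fell in fibroblast-like cells ran from 58.3% for *Col6a3* to 77.9% for *Col11a1*.

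**Figure D1:**
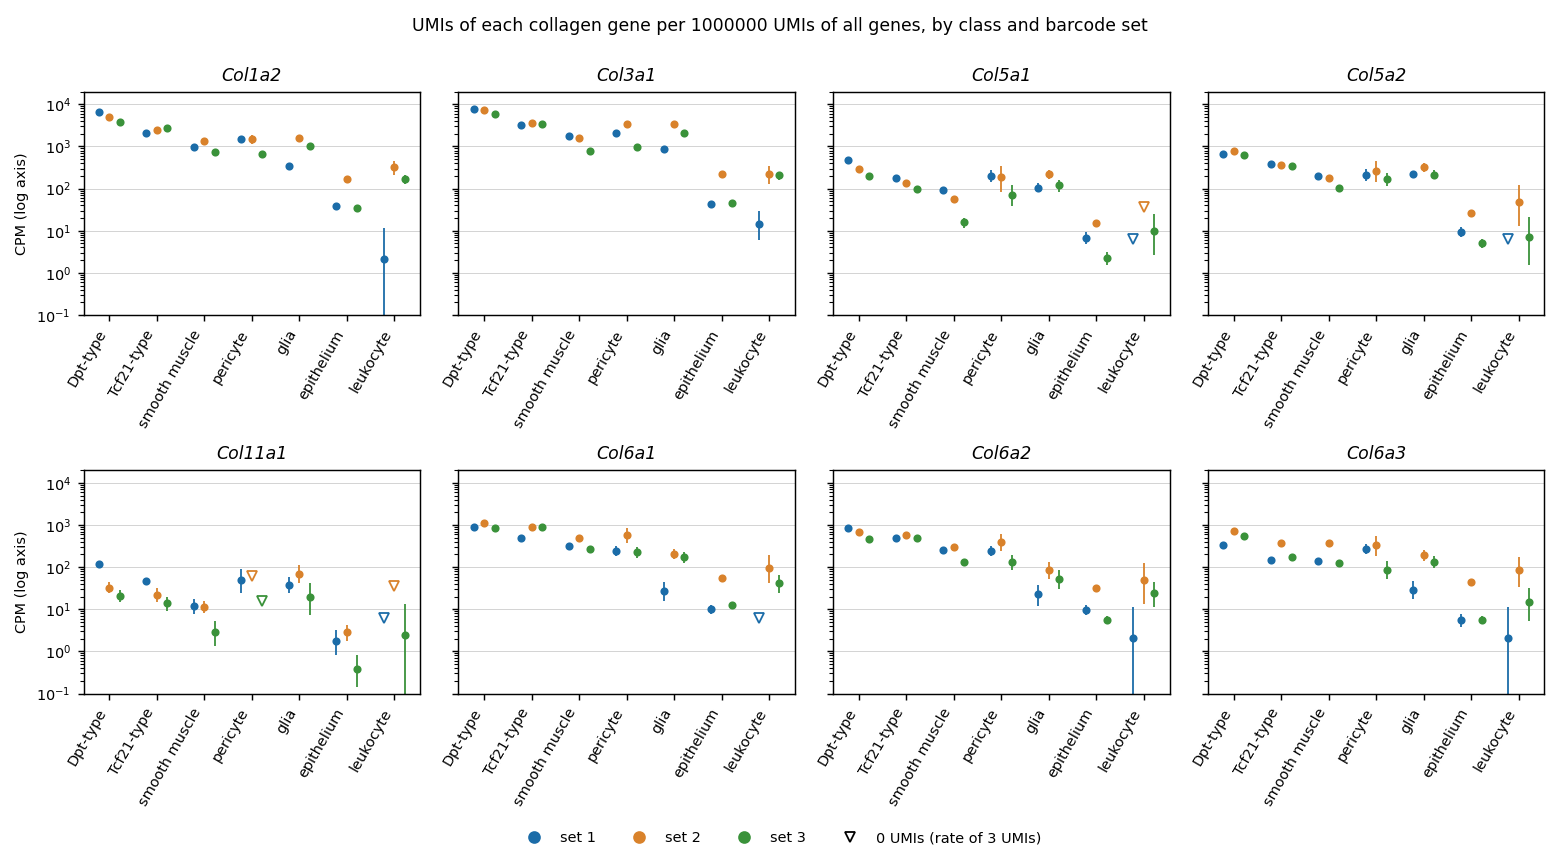
Rate of each member (CPM, log axis) by cell class, with colours for the 3 barcode sets and bars for the 95% Poisson interval of the counts. Dpt-type cells lie highest for most members, the glial points lie above the smooth muscle points for *Col3a1* and *Col5a1* in sets 2 and 3 and below them for *Col6a2*, and open triangles mark classes with 0 UMIs at the rate that 3 UMIs would give.

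Type I and type III collagen genes led in the Dpt-type class of every set. The *Col1a2* rate there was 6609 (6526 to 6692), 5012 (4894 to 5132) and 3833 (3743 to 3924) CPM in sets 1, 2 and 3. Tcf21-type cells followed with 2043 (1995 to 2091), 2498 (2408 to 2591) and 2771 (2698 to 2845) CPM. Below them the order differed between sets. In set 1, pericyte-like cells (1513 [1348 to 1693] CPM) came before smooth muscle-like cells (979 [935 to 1024]) and glia-like cells were last of the 5 classes (338 [292 to 389]). In set 2, glia-like (1560.3 [1411 to 1721]), pericyte-like (1466 [1145 to 1849.7]) and smooth muscle-like cells (1347 [1307 to 1389]) were neighbours, and the pericyte-like interval overlapped both others. In set 3, glia-like cells (1032 [921 to 1153] CPM) stood above smooth muscle-like (727 [699 to 755]) and pericyte-like cells (660.3 [551 to 785]), whose intervals overlapped. Epithelium-like cells had 38.7, 166 and 34.98 CPM.

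*Col3a1* followed the same order at the top, with 7644 (7555 to 7733), 7465 (7321 to 7611) and 5818 (5708 to 5930.4) CPM in Dpt-type cells and 3283 (3223 to 3345), 3628 (3519 to 3739) and 3332 (3251 to 3413) CPM in Tcf21-type cells. It differed from *Col1a2* in the glia-like class, which reached 872 (798 to 952), 3451 (3228 to 3686) and 2114 (1953 to 2284) CPM and, in set 2, did not differ beyond counting error from the Tcf21-type class or from the pericyte-like class (3408 [2908 to 3969]). Smooth muscle-like cells held 1763 (1704 to 1823), 1558 (1514 to 1602) and 799.7 (771 to 829.7) CPM, the lowest of the 5 classes in sets 2 and 3 and above glia in set 1. The background in epithelium-like cells was 43.4, 228 and 46.6 CPM, and in leukocyte-like cells 14.6, 219.6 and 206 CPM.

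Among the minor fibrillar chains, *Col5a1* was again highest in Dpt-type cells, at 477 (455 to 500.2), 299 (271 to 329.5) and 196 (176 to 217) CPM. In sets 2 and 3 glia-like cells came next, with 218 (165 to 283) and 119 (83.1 to 164) CPM, above the Tcf21-type rate (139 [118 to 162] and 98.7 [85.3 to 114] CPM) in set 2 and with overlapping intervals in set 3. That order in set 2 depended on the classes, since the Tcf21-type over glia-like log2 ratio was -0.65 (-1.09 to -0.18) and became 0.016 without integration and 0.030 with cells classed singly. Smooth muscle-like cells were low, at 94.3 (81.1 to 109), 56.0 (47.9 to 65.0) and 15.8 (11.9 to 20.5) CPM. Beside them, epithelium-like cells had 6.74, 14.9 and 2.21 CPM, endothelium-like cells 3.80, 14.01 and 7.23 CPM and leukocyte-like cells 0, 0 and 9.68 CPM, and in set 3 the latter pair stood at 45.8% and 61.3% of the smooth muscle-like rate. *Col5a2*, whose product joins that of *Col5a1* in type V collagen, kept the order of Dpt-type, Tcf21-type, glia-like and smooth muscle-like cells in each set, although in sets 1 and 2 some neighbours in it overlapped. Its rate was 673 (647 to 699.8), 779.6 (733 to 828) and 642 (606 to 679.9) CPM in Dpt-type and 391 (370.4 to 413), 362 (329 to 399) and 340.3 (315 to 367) CPM in Tcf21-type cells. Glia-like cells had 217 (180.4 to 258), 319 (254 to 396) and 214 (165 to 273) CPM and smooth muscle-like cells 202 (182 to 223), 176 (162 to 192) and 103 (93.1 to 115) CPM, so that glia and muscle overlapped in set 1 and glia and Tcf21-type cells in set 2.

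*Col11a1*, best known from cartilage, was detected at low rates. Set 1 Dpt-type cells stood out with 119 (108 to 131) CPM, against 46.4 (39.5 to 54.2) in Tcf21-type, 38.1 (23.9 to 57.8) in glia-like and 11.9 (7.56 to 17.9) in smooth muscle-like cells. In set 2 the glia-like rate, 70.0 (41.5 to 111) CPM from 18 UMIs, was the highest measured and that of Dpt-type cells 32.9 (24.0 to 44.0) CPM. These intervals overlap, and the Dpt-type over glia-like log2 ratio was -1.09 (-1.91 to -0.21). In set 3 the Dpt-type (21.0 [14.8 to 28.8]), glia-like (19.8 [7.26 to 43.1]) and Tcf21-type cells (13.7 [9.05 to 19.98]) did not differ beyond counting error. Pericyte-like cells of sets 2 and 3 had no UMI of the gene, where 3 UMIs would be 62.0 and 15.5 CPM.

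Among the type VI genes, *Col6a1* and *Col6a2* were lowest in glia-like cells of the 5 classes in each set, while *Col6a3* was not in set 3. *Col6a1* reached 902 (872 to 933), 1098 (1043 to 1155) and 865 (823 to 909) CPM in Dpt-type cells and 503 (479 to 527), 886 (833 to 942) and 911 (869.8 to 955) CPM in Tcf21-type cells, so that the fibroblast types differed in sets 1 and 2 and had overlapping intervals in set 3. Smooth muscle-like cells had 315 (291 to 341), 489.6 (465 to 515) and 265 (248 to 282) CPM and glia-like cells 27.7 (15.9 to 45.1), 206 (154 to 269.7) and 171 (128 to 225) CPM. *Col6a2* gave 858, 668 and 471 CPM in Dpt-type, 494, 572 and 503 in Tcf21-type and 262, 306 and 129.7 in smooth muscle-like cells. Its glia-like rate was 22.5 (12.003 to 38.5), 85.6 (53.6 to 129.6) and 52.8 (30.2 to 85.7) CPM, the lowest of the 5 classes in each set, with 13, 22 and 16 UMIs behind it. Beside it, epithelium-like cells had 9.68, 31.7 and 5.50 CPM, leukocyte-like cells 2.09, 48.8 and 24.2 CPM and endothelium-like cells 0.9498, 46.7 and 7.23 CPM.

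*Col6a3*, which encodes the longest of the 3 chains, departed from its partners. Its Dpt-type rate was 334 (315 to 353), 714 (669.7 to 760.0) and 541 (508 to 576) CPM, while Tcf21-type cells, at 146 (133 to 159), 370.0 (336 to 407) and 179 (161 to 199) CPM, did not differ beyond counting error from smooth muscle-like cells (139 [122.8 to 157], 382 [360.3 to 404] and 128 [116 to 140.3] CPM) in sets 1 and 2. The log2 ratio of Tcf21-type over smooth muscle-like cells was 0.07 (-0.15 to 0.29), -0.05 (-0.21 to 0.11) and 0.48 (0.28 to 0.69), so only set 3 showed a difference beyond counting error. Glia-like cells had 29.5 (17.2 to 47.2), 191 (141 to 252) and 132 (94.2 to 179.6) CPM of *Col6a3*, which in set 3 overlapped smooth muscle-like cells and pericyte-like cells (87.7 [51.1 to 140.4] CPM). Endothelium-like cells had 1.90, 131 and 36.2 CPM. For *Col6a1* the same ratio was 0.67 (0.54 to 0.81), 0.86 (0.74 to 0.97) and 1.78 (1.67 to 1.90).

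Shares of cells with at least 1 UMI are given at full depth and again with each cell thinned to a depth of 900 UMIs (7, 342 and 693 shallower cells of the sets were left out). In Dpt-type cells *Col3a1* was detected in 99.4%, 98.3% and 92.9% of cells, and in 93.5%, 95.1% and 90.4% after thinning. Epithelium-like cells, with median totals of 40496, 4064 and 3452 UMIs against 20320.0, 1306 and 1418, had 26.2%, 27.7% and 8.24% and, thinned, 2.48%, 10.9% and 2.67%. Thinned shares for *Col3a1* were 81.0%, 87.8% and 86.3% in Tcf21-type, 63.0%, 59.3% and 42.6% in smooth muscle-like and 57.1%, 83.6% and 66.4% in glia-like cells, all above the epithelial share of the same set. *Col6a2* was found in 38.1%, 10.2% and 6.22% of glia-like cells at full depth. After thinning it was found in 9.84% and 7.96% in sets 2 and 3 and in none of the 21 of set 1, where 3 cells would be 14.3% and the exact upper limit is 16.1%, which limits thinned cells with a UMI and not cells that hold the mRNA. In Dpt-type cells its thinned share was 49.7%, 42.6% and 29.1% (full depth 97.4%, 60.4% and 42.8%), and in epithelium-like cells 0.826%, 1.94% and 0.565% (full depth 9.02%, 11.2% and 2.41%). *Col11a1* reached no more than 9.03% of fibroblast, smooth muscle or glia-like cells of any set after thinning.

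Dpt-type and Tcf21-type fibroblasts were compared first, to see whether the collagen genes tell the fibroblast types apart. The summed fibrillar members were higher in Dpt-type cells in each set, by 2.61, 2.04 and 1.60 times, and the summed type VI members by 1.83, 1.36 and 1.18 times. As log2 ratios these are 1.39 (1.36 to 1.41), 1.03 (0.99 to 1.07) and 0.68 (0.65 to 0.71) for the fibrillar sum and 0.87 (0.82 to 0.93), 0.44 (0.36 to 0.52) and 0.24 (0.17 to 0.31) for type VI. At least 2-fold higher were 5, 4 and 1 of the 8 members, where 8.3%, 4.51% and 5.22% of all rows with at least 20 UMIs passed that limit, and none was 2-fold lower (17.6%, 3.4% and 5.04% of all rows). The median log2 ratio of the members was 1.21, 0.98 and 0.71, and that of all rows -0.28, 0.04 and 0.00.

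Single members differed in this comparison. *Col1a2* had log2 ratios of 1.69 (1.66 to 1.73), 1.00 (0.94 to 1.07) and 0.47 (0.42 to 0.52), and *Col3a1* of 1.22 (1.19 to 1.25), 1.04 (0.99 to 1.09) and 0.80 (0.76 to 0.85). *Col6a1* and *Col6a2* were the members with the smallest differences outside set 1, at 0.31 (0.19 to 0.42) and -0.07 (-0.17 to 0.02) and 0.23 (0.08 to 0.37) and -0.10 (-0.23 to 0.04) in sets 2 and 3, and in set 3 neither interval excluded 0. *Col6a3* kept a difference there, with 1.19 (1.04 to 1.35), 0.95 (0.78 to 1.11) and 1.60 (1.42 to 1.78), and was the only member past 2-fold in set 3. The 12 genes of the general fibroblast list were also lower in the Tcf21-type class, with 38.6%, 49.5% and 54.4% of their Dpt-type sum, beside 38.3%, 48.9% and 62.4% for the fibrillar sum, and whether the members differ beyond that list was not tested.

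These values depended on where the border between the fibroblast types was drawn. With clusters at resolution 1.0, a cluster led by *Sult1e1*, *Tnfaip6* and *Ugdh*, 99.1% of whose cells were Dpt-type above, took the Tcf21-type name. The Tcf21-type class then held 304, 1617 and 1914 cells, more than this cluster and the *Fgf21* cluster described below together. The make-up of its other cells is not given here, and the smooth muscle-like class fell to 53, 1246 and 1685 cells. The Dpt-type class then held 103, 396 and 977 cells, of which the *Ptx3* cluster described below gives 80, 105 and 255, and the rest came from a cluster led by *Inmt* and *Gsn*, 91.7% of whose cells were Tcf21-type above, so the comparison is not the same one. The fibrillar log2 ratios became 1.71, 1.10 and 0.62, and 5, 2 and 0 members were past 2-fold (7.56%, 4.32% and 5.59% of all rows). *Col6a3* then had log2 ratios of -0.095 in set 2, the opposite direction, and 0.38 in set 3. When cells were classed singly from their own marker UMIs, the ratios were 0.93, 0.73 and 0.36 and the counts 2, 0 and 0 (5.39%, 2.93% and 3.72% of all rows).

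**Figure D2:**
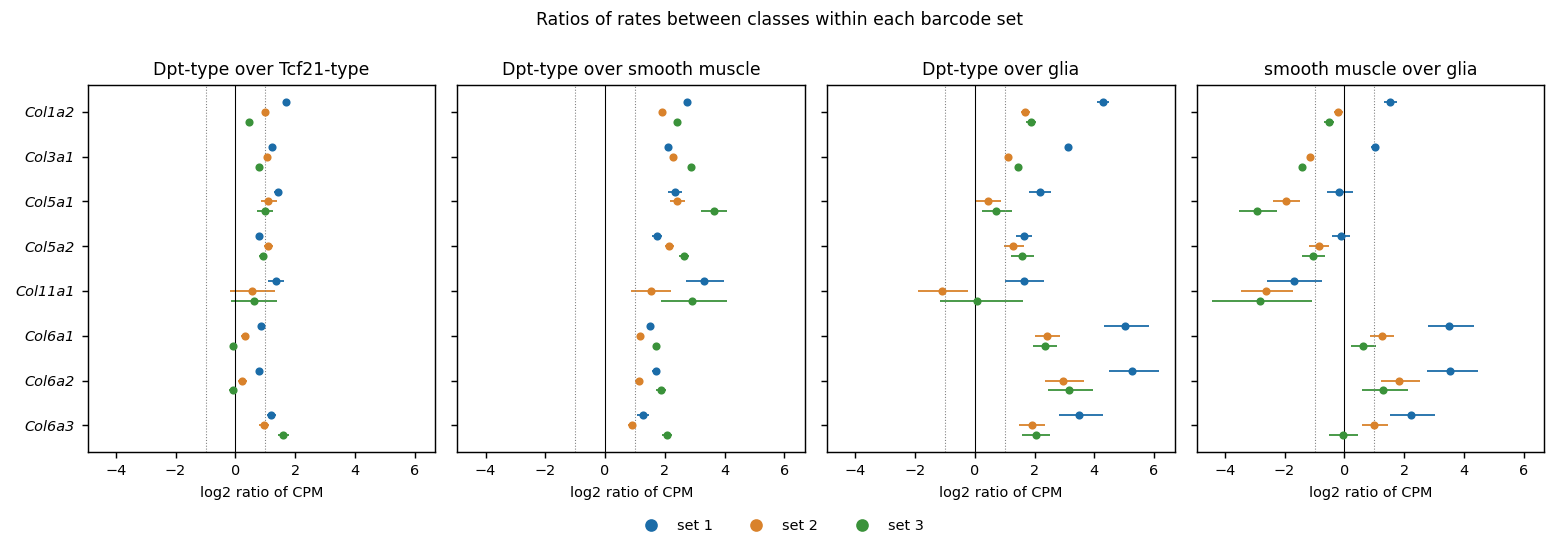
Log2 ratio of CPM for each member between classes within a barcode set (colours), with 95% intervals for counting error, a solid line at 0 and dotted lines at 2-fold. Nearly all members lie right of 0 for Dpt-type over Tcf21-type and smooth muscle, while for smooth muscle over glia the fibrillar members of sets 2 and 3 lie left of 0 and *Col6a1* and *Col6a2* lie right of it.

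Against smooth muscle the Dpt-type class was higher for every member in each set. The fibrillar sum was 5.09, 4.32 and 6.38 times higher (log2 2.35 [2.31 to 2.39], 2.11 [2.07 to 2.15] and 2.67 [2.63 to 2.72]) and the type VI sum 2.92, 2.11 and 3.59 times (log2 1.55 [1.46 to 1.63], 1.07 [1.01 to 1.14] and 1.85 [1.76 to 1.93]). Past 2-fold were 8, 7 and 8 of 8 members, with 10.5%, 10.5% and 14% of all rows in the background. At least 4-fold higher were 4, 3 and 6 members (3.52%, 2.21% and 4.82% of all rows), against 0, 0 and 0 over Tcf21-type cells (3.21%, 0.6% and 1.22% of all rows). *Col5a1* had the largest difference in sets 2 and 3, with log2 ratios of 2.42 (2.16 to 2.68) and 3.63 (3.22 to 4.07) that rest on low smooth muscle-like rates, and *Col11a1* in set 1, with 3.32 (2.72 to 3.99). *Col6a3* had the smallest in sets 1 and 2, at 1.26 (1.07 to 1.46) and 0.90 (0.78 to 1.03), and in set 2 it was the member that stayed below 2-fold. The general fibroblast list was lower in smooth muscle-like cells too, with 27.8%, 27.6% and 14.5% of its Dpt-type sum beside 19.6%, 23.2% and 15.7% for the fibrillar sum and 34.2%, 47.5% and 27.8% for type VI, and whether the members differ beyond that list was not tested.

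Tcf21-type cells were closer to smooth muscle. Their fibrillar sum exceeded it by log2 0.96 (0.92 to 1.00), 1.08 (1.04 to 1.12) and 1.99 (1.95 to 2.04) and their type VI sum by 0.67 (0.59 to 0.76), 0.63 (0.56 to 0.71) and 1.61 (1.53 to 1.69), with 2, 3 and 7 of 8 members past 2-fold against 9.84%, 8.88% and 14% of all rows. In set 3 the only member below 2-fold was *Col6a3*.

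Pericyte-like cells, which wrap capillaries, held intermediate rates from few cells. Their fibrillar sum was 4093 (3818 to 4382), 5329 (4698 to 6020.2) and 1873 (1685 to 2075) CPM and their type VI sum 754 (639 to 884), 1301 (999.9 to 1665) and 449 (359 to 554) CPM. In sets 2 and 3 the Dpt-type class exceeded them by log2 1.35 (1.17 to 1.53) and 2.49 (2.34 to 2.64) for the fibrillar sum and 0.93 (0.57 to 1.31) and 2.06 (1.76 to 2.39) for type VI, with 4 and 7 of 8 members past 2-fold (3.53% and 11.3% of all rows). In set 2 the median log2 ratio of Dpt-type over pericyte-like cells was -0.70 over all rows. Sums below 3 UMIs were set to 3 in ratios, which is 62.0 CPM in these 30 cells, so rows of low rate give negative ratios by rule. This median and the 3.53% are therefore not read as a trait of the cells. Between smooth muscle-like and pericyte-like cells, *Col5a1* was lower in smooth muscle, with log2 ratios of -1.73 (-2.69 to -0.58) and -2.19 (-3.06 to -1.23) in sets 2 and 3, while *Col6a1* (-0.24 [-0.78 to 0.35] and 0.22 [-0.21 to 0.69]), *Col6a2* and *Col6a3* had intervals that included 0. The smooth muscle list summed to 136%, 28.4% and 46.5% of its smooth muscle-like level in pericyte-like cells of sets 1, 2 and 3, so that in set 1 the class named for smooth muscle carried less of that list than the 9 pericyte-like cells. In pericyte-like cells the general fibroblast list summed to 30.8%, 23.8% and 10.1% of its Dpt-type level, beside 26.4%, 39.2% and 17.8% for the fibrillar sum, with *Dpt* at 0 in set 1 and *Pdgfra* at 0 in set 2. The part of either list in the pericyte-like values was not tested.

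The glia-like class held a larger part of the Dpt-type level for the fibrillar sum than for the type VI sum, although single members overlapped. Relative to Dpt-type cells of the same set, glia-like cells had 11.4%, 46.2% and 36.3% of the *Col3a1* rate, 22.2%, 72.8% and 60.6% of *Col5a1* and 32.1%, 213% and 94.3% of *Col11a1*, with 3.08%, 18.8% and 19.8% of *Col6a1* and 2.63%, 12.8% and 11.2% of *Col6a2*. *Col1a2*, with 5.12%, 31.1% and 26.9%, and *Col6a3*, with 8.84%, 26.7% and 24.4%, did not follow this split, since the *Col6a3* part was the larger in set 1 and the pair lay close in sets 2 and 3. Dpt-type over glia-like log2 ratios were 3.30 (3.21 to 3.40), 1.27 (1.197 to 1.35) and 1.59 (1.498 to 1.68) for the fibrillar sum and 4.71 (4.30 to 5.17), 2.36 (2.10 to 2.63) and 2.40 (2.12 to 2.69) for the type VI sum, and their intervals did not overlap in any set. Past 2-fold higher in Dpt-type cells were 8, 6 and 6 of 8 members (13.5%, 11.8% and 10.8% of all rows), and past 2-fold lower were 0, 1 and 0 (18.2%, 13.2% and 18.1%), the member being *Col11a1* in set 2.

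Compared with smooth muscle, glia-like cells of sets 2 and 3 held more fibrillar and less type VI mRNA. In these sets the smooth muscle-like over glia-like log2 ratio of the fibrillar sum was -0.84 (-0.92 to -0.75) and -1.09 (-1.18 to -0.99), and that of the type VI sum 1.29 (1.03 to 1.56) and 0.55 (0.27 to 0.85). For *Col5a1* the ratios were -1.96 (-2.40 to -1.50) and -2.91 (-3.54 to -2.26) and for *Col3a1* -1.15 (-1.25 to -1.04) and -1.40 (-1.53 to -1.28). *Col6a2* was higher in smooth muscle, with 1.84 (1.23 to 2.52) and 1.30 (0.58 to 2.12), and *Col6a3* was higher in set 2 (1.00 [0.59 to 1.45]) while its interval included 0 in set 3 (-0.04 [-0.51 to 0.46]). Of the members, 5, 3 and 1 were past 2-fold higher (12.6%, 8.3% and 7.58% of all rows) and 1, 3 and 3 past 2-fold lower (12.5%, 16.1% and 21.1%), with 7 members tested in set 3 and 8 in the others. Set 1, with 21 glia-like cells, had a positive ratio for the fibrillar sum too (0.96 [0.86 to 1.06]) and a larger one for type VI (3.17 [2.74 to 3.62]).

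Markers of other stromal cells in the glia-like class bear on these values. The fibroblast list summed there to 829, 1039 and 2146 CPM, 7.17%, 9.91% and 14.2% of its Dpt-type level, with *Dpt* at 0 in sets 1 and 2 and *Mfap5* at 0 in set 1 and none of the 12 at 0 in set 3. *Dcn*, the proteoglycan decorin, had 149, 490.3 and 1418 CPM in glia-like cells against 5864, 6511 and 9955 in Dpt-type cells. The Dpt-type list, which shares genes with it, summed to 24.5%, 29.5% and 16.8% of its Dpt-type level, above the 11.4% of *Col3a1* in set 1, and *Col1a2* in set 1, at 5.12%, was below both lists. The smooth muscle list summed to 992, 4113 and 2773 CPM in glia-like cells, 21.5%, 14.9% and 10.4% of its smooth muscle-like level, with *Casq2* at 0 in set 1 and no gene at 0 in sets 2 and 3. The epithelium list stood at 1.99%, 9.24% and 18.8% of its epithelium-like level, with 0, 3 and 2 of its 14 genes at 0. Leukocyte-like cells of the same sets had 14.6 (5.87 to 30.1), 219.6 (130.1 to 347) and 206 (164 to 254) CPM of *Col3a1* and 1.37%, 12.2% and 3.70% of the fibroblast list. The highest 5% of doublet scores of a set took 9.52%, 11.3% and 9.96% of glia-like cells, against 5.81%, 1.92% and 2.40% of Dpt-type and 1.96%, 4.33% and 3.23% of smooth muscle-like cells. Without them the glia-like type VI share of the 8 members was 6.18% and 7.80% in sets 2 and 3, the type VI log2 ratio over glia-like cells 2.72 and 2.72 for Dpt-type and 1.59 and 0.79 for smooth muscle-like cells, and the fibrillar ratio 1.25 and 1.63 and -0.99 and -1.15. The part of RNA from other cells in the glial values was not tested.

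The make-up of the collagen mRNA differed by class in the same sense. Since 3′ counting carries no transcript length, shares of UMIs are shares of captured molecules. The type VI members made up 4.83% (3.56 to 6.39), 7.91% (6.62 to 9.36) and 9.24% (7.64 to 11.05) of the 8 members' UMIs in glia-like cells, the lowest of the 5 classes in each set. Dpt-type cells had 11.9% (11.6 to 12.1), 15.4% (14.96 to 15.9) and 15.2% (14.7 to 15.6), Tcf21-type cells 16.1% (15.7 to 16.6), 21.6% (20.8 to 22.4) and 19.6% (18.9 to 20.2) and smooth muscle-like cells 19.0% (18.1 to 19.9), 27.2% (26.5 to 28.0) and 24.1% (23.1 to 25.0), the highest of the 5 in each set. Epithelium-like cells, at 20.2% (17.3 to 23.3), 23.1% (21.9 to 24.4) and 20.7% (18.9 to 22.7), lay near the muscle and Tcf21-type shares and away from the glial share. This order of the 4 classes (glia-like, Dpt-type, Tcf21-type, smooth muscle-like) was also found at resolution 1.0, with collagen rows kept, without integration, with cells classed singly and with deeper cells alone, in every set that gave all 4 values.

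Within the most abundant pair, *Col3a1* took 72.1% (68.6 to 75.4), 68.9% (66.3 to 71.4) and 67.2% (64.1 to 70.2) of the joint *Col1a2* and *Col3a1* UMIs in glia-like cells, above fibroblasts and smooth muscle of the same set. In the other classes this share had no common order across sets, with 53.6%, 59.8% and 60.3% in Dpt-type, 61.6%, 59.2% and 54.6% in Tcf21-type and 64.3%, 53.6% and 52.4% in smooth muscle-like cells. Among type V genes, *Col5a2* held 68.1% (64.1 to 71.9), 75.9% (72.6 to 79.0) and 86.8% (83.2 to 89.8) of the joint *Col5a1* and *Col5a2* UMIs in smooth muscle-like cells. Dpt-type cells, with 58.5% (57.0 to 59.98), 72.3% (69.9 to 74.5) and 76.6% (74.4 to 78.7), stood lower in sets 1 and 3, while in set 2 the intervals overlapped.

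*Col6a3* gave 15.9% (15.1 to 16.8), 28.8% (27.3 to 30.3) and 28.8% (27.3 to 30.4) of the type VI UMIs in Dpt-type cells and 12.7% (11.7 to 13.8), 20.2% (18.6 to 22.0) and 11.2% (10.2 to 12.4) in Tcf21-type cells, a lower share in each set. That order turned with the class border, since at resolution 1.0 the shares were 14.05%, 22.8% and 23.3% in Dpt-type and 16.0%, 28.2% and 19.6% in Tcf21-type cells, higher in the latter in sets 1 and 2, and without integration 24.1% and 26.1% in set 2. Smooth muscle-like cells had 19.4% (17.3 to 21.6), 32.4% (30.9 to 34.0) and 24.5% (22.6 to 26.5). *Col6a2* took 43.3%, 31.3% and 31.6% in Tcf21-type cells and 41.0%, 27.0% and 25.1% in Dpt-type cells, and *Col6a1* 44.0%, 48.5% and 57.2% and 43.1%, 44.3% and 46.1%. Glia-like cells had 37.0% (23.2 to 52.5), 39.5% (30.9 to 48.7) and 37.0% (27.9 to 46.9) for *Col6a3*, from 46, 124 and 108 type VI UMIs in all.

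**Figure D3:**
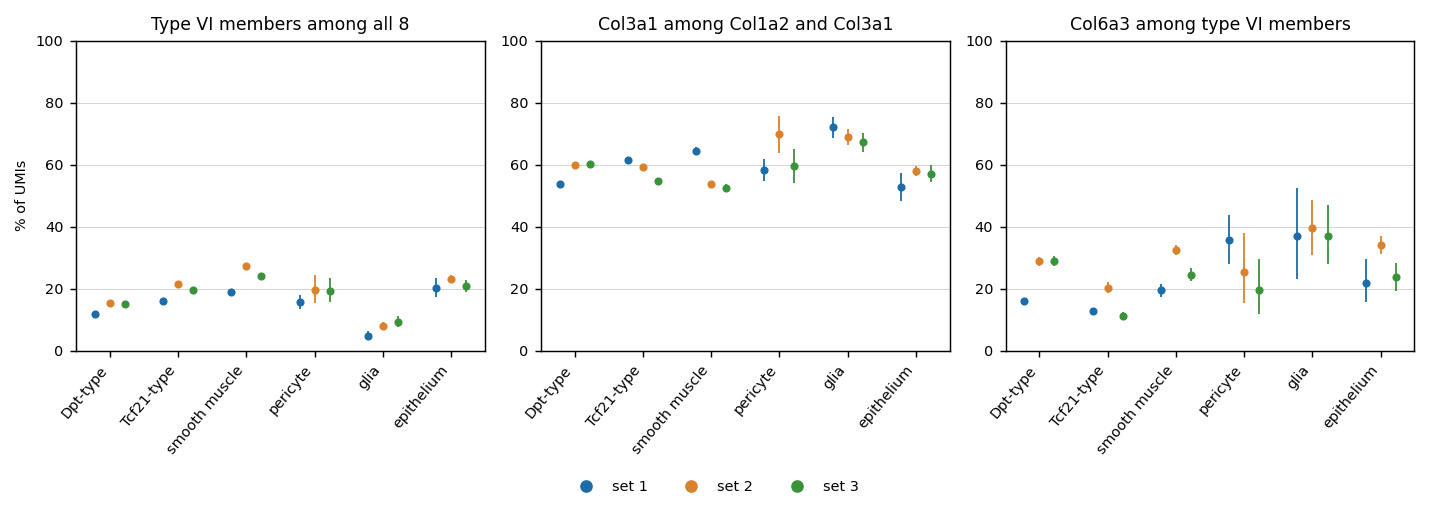
Share of UMIs (%) by class and barcode set (colours) with exact 95% intervals, for the type VI members among all 8, *Col3a1* among *Col1a2* and *Col3a1*, and *Col6a3* among the type VI members. The glial points are lowest in the first panel and highest in the second, except for pericyte-like cells of set 2, which overlap them there, and Tcf21-type points are lowest in the third.

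Single cells of a class varied widely. In Dpt-type cells the summed fibrillar UMIs per 10000 UMIs of a cell had a lowest decile of 27.6, 42.8 and 20.8, a median of 132, 107 and 71.5 and a highest decile of 267, 251 and 184 in sets 1, 2 and 3. Tcf21-type cells had medians of 42.3, 53.6 and 46.6 and highest deciles of 124, 122 and 121, so the ranges of the fibroblast types overlapped. Medians were 26.8, 19.8 and 10.7 in smooth muscle-like cells and 11.3, 43.3 and 24.1 in glia-like cells, and 0 in epithelium-like cells. For the type VI sum they were 19.4, 22.2 and 14.2 in Dpt-type, 10.4, 16.2 and 11.5 in Tcf21-type, 6.77, 9.20 and 3.08 in smooth muscle-like and 0.421, 0 and 0 in glia-like cells. Depth moved with these values in part, since Dpt-type cells above the median depth of their set had fibrillar rates of 17543, 14192 and 11985 CPM and the others 10608, 12342 and 7876 CPM. Its part was not tested.

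**Figure D4:**
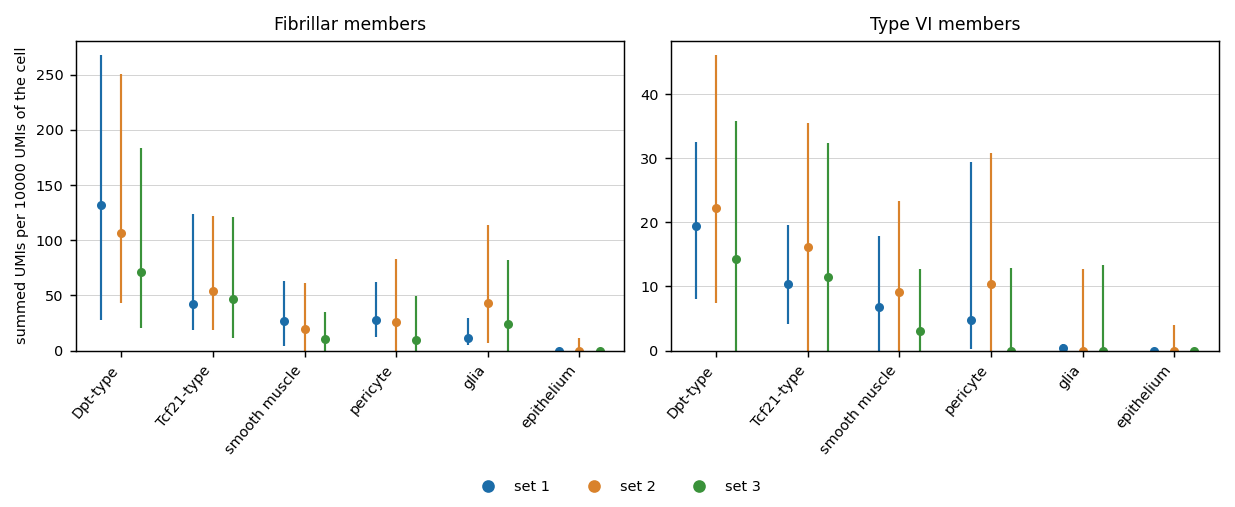
Summed UMIs of the fibrillar (left) and type VI (right) members per 10000 UMIs of a cell, by class and barcode set (colours). Points are medians over cells and bars run from the lowest to the highest decile, and the deciles of Dpt-type and Tcf21-type cells overlap in each set while epithelium-like medians are 0.

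Across cells thinned to 900 UMIs, *Col1a2* and *Col3a1* had the highest Pearson correlation of the 28 member pairs in fibroblasts, at 0.64, 0.59 and 0.52 in Dpt-type cells of sets 1, 2 and 3 (155, 772 and 1077 cells) and 0.58, 0.53 and 0.51 in Tcf21-type cells (200, 670 and 1174 cells). Spearman values for that pair were 0.72, 0.48 and 0.52 and 0.37, 0.35 and 0.41. *Col6a1* and *Col6a2* gave 0.18, 0.14 and 0.19 in Dpt-type cells. These cells share a library, and with few UMIs per gene the lower values are no finding.

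Finer clusters, found at resolution 1.0 and again without collagen rows, split the Dpt-type class by its fibrillar level. A cluster led by *Ptx3*, *Eln*, *Dpt* and *Postn* (80, 105 and 255 cells, 99.8% of them Dpt-type) had fibrillar sums of 19764 (19586 to 19943), 28463 (27753 to 29186) and 17792 (17412 to 18178) CPM. Another cluster, led by *Sult1e1*, *Tnfaip6* and *Ugdh* with *Igf1* among its 10 leading genes (74, 701 and 813 cells), had 7948 (7796 to 8102), 10792 (10599.8 to 10986) and 8098 (7937 to 8261) CPM. *Col3a1* was 9757, 16894 and 11086 CPM in the former and 3868, 5663 and 4009 in the latter. Type VI sums were nearer, at 2355, 2842 and 2635 against 1613, 2426 and 1661 CPM, and *Col6a3* was 330.0, 681 and 826 against 344, 727 and 467 CPM, with overlapping intervals in sets 1 and 2. Cells of these clusters thus differed more in fibrillar than in type VI mRNA. Some Dpt-type cells lay in neither of them.

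Of the Tcf21-type cells, a cluster led by *Fgf21*, *Lamc3* and *Col15a1* had 9762, 6445 and 7271 CPM of the fibrillar sum in sets 1, 2 and 3 and one led by *Inmt* and *Gsn* had 7598, 7761 and 5501 CPM, with 19, 499 and 795 cells in the former and 23, 291 and 722 in the latter, so that their order in set 2 was opposite to that in sets 1 and 3. Their type VI sums were 1578, 1844 and 1866 and 1119.6, 1868 and 1129 CPM, the first being higher in sets 1 and 3. Most of the 202 Tcf21-type cells of set 1 lay in neither of these clusters. Both fibrillar rates of set 1 exceeded the 5941 CPM of the whole class there. Smooth muscle-like cells divided as well. A cluster led by the *EGFP* transgene row, *Sfrp2* and *Tmem119* had fibrillar sums of 4755, 5131 and 3284 CPM. Over all sets together, 72.4% of its cells were smooth muscle-like. It stood above a cluster led by *Tnnc2*, *Actg2* and *Tnnt2*, which had 2444, 1681 and 1272 CPM (16 cells in set 1). The make-up of the *EGFP* cluster is not given for single sets, so its set 1 value is not read as one of smooth muscle.

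**Figure D5:**
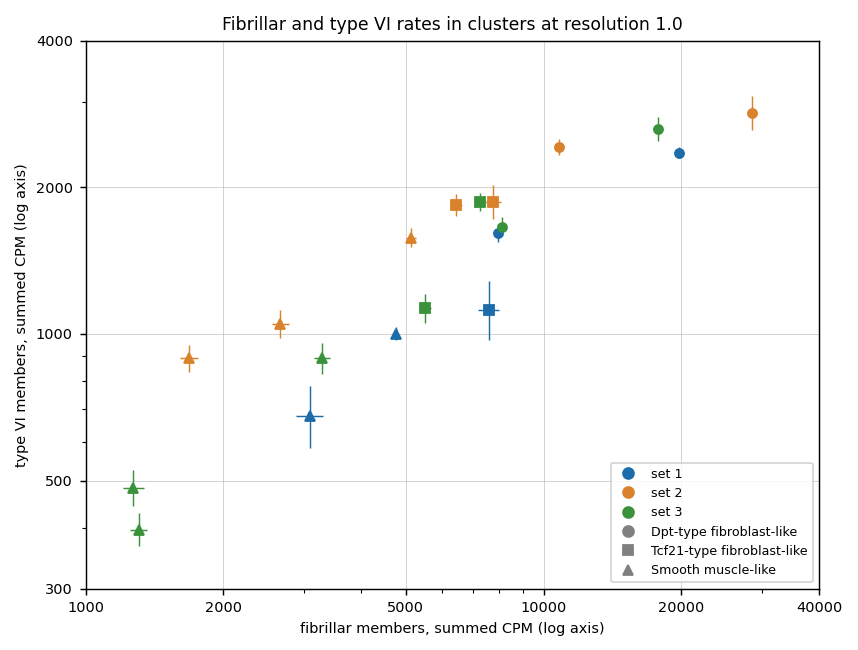
Summed fibrillar rate against summed type VI rate (CPM, log axes) in clusters at resolution 1.0 with at least 20 cells. Symbols give the class of most cells of a cluster over all sets together, which may differ within a set. Colours give the barcode set and bars 95% Poisson intervals. The *Ptx3* and *Eln* cluster is the circle farthest right in each set, from 17792 to 28463 CPM, and the smooth muscle clusters of a set lie left of its fibroblast clusters.

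Genes that make, cross-link or bind collagen were looked at from a list of 76, of which 38 have a row. Between the fibroblast types, 11, 6 and 5 of 33, 26 and 24 tested genes were at least 2-fold higher in Dpt-type cells and 1, 0 and 0 2-fold lower, beside the shares of all rows given above. The gene that was lower in set 1 was *Adamts3*, which encodes a procollagen peptidase (-1.12 [-2.25 to -0.06]). Fibril partners led this count, with 7 of 7 in set 1, 3 of 7 in set 2 and 3 of 6 in set 3. *Postn*, which encodes the collagen-binding protein periostin, had 1032 (999 to 1065), 599 (559 to 641) and 209.7 (189 to 232) CPM in Dpt-type cells and 96.4, 117 and 18.8 in Tcf21-type cells. The small leucine-rich proteoglycans *Lum* and *Dcn* were also higher, by log2 2.47, 1.89 and 1.59 and 1.38, 1.36 and 1.08, but they and *Bgn*, *Fn1* and *Pcolce* are markers that helped to name the classes. *Bgn* was higher in Dpt-type cells in set 1 and lower in sets 2 and 3, at 1.22 (1.14 to 1.30), -0.58 (-0.73 to -0.44) and -0.65 (-0.74 to -0.56).

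Among chaperones and modifying enzymes, *Serpinh1*, the collagen chaperone HSP47, had 2575 (2523 to 2627), 891 (841 to 942) and 830.1 (789 to 873) CPM in Dpt-type, 1448 (1408 to 1489), 843 (791 to 897) and 967 (924 to 1011) in Tcf21-type and 1019 (975 to 1065), 651 (623 to 681) and 416 (395 to 438) in smooth muscle-like cells, with Dpt-type over Tcf21-type log2 ratios of 0.83 (0.78 to 0.88), 0.08 (-0.04 to 0.20) and -0.22 (-0.32 to -0.12). In hydroxylation enzymes 1 of 8 tested genes was past 2-fold between the fibroblast types in set 1, *P4ha3* (3.37 [2.72 to 4.09]), and 0 of 6 in sets 2 and 3, while *P3h3* gave 0.37 (0.20 to 0.55), 0.37 (-0.01 to 0.75) and 0.14 (-0.13 to 0.41). *Loxl3*, the cross-linking enzyme with a row, was past 2-fold in set 3 (1.60 [0.52 to 2.81]) from rates of 15.5 and 5.09 CPM. In folding and export 0 of 4 genes passed between the fibroblast types in any set. Against smooth muscle, 4, 3 and 4 of 7, 6 and 6 hydroxylation genes and 2, 1 and 2 of 4 folding and export genes were at least 2-fold higher in Dpt-type cells. Over the whole list, 21, 11 and 16 of 32, 27 and 25 genes were at least 2-fold higher in Dpt-type cells and none lower, where 10.5%, 10.5% and 14% of all rows were higher and 9.9%, 11.3% and 14.5% lower.

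Among receptors and uptake genes, *Ddr2*, a receptor tyrosine kinase for fibrillar collagen, was at 60.6, 157 and 120.3 CPM in Dpt-type, 45.3, 145 and 129 in Tcf21-type and 49.6, 227 and 129 in pericyte-like cells, and at 8.67, 23.3 and 13.2 in glia-like cells. *Antxr1*, a receptor reported to bind type VI collagen, was higher in Dpt-type than Tcf21-type cells by log2 0.90 (0.55 to 1.25), 1.01 (0.38 to 1.68) and 1.11 (0.69 to 1.54). *Ctsk*, the collagen-degrading protease cathepsin K, was higher in Dpt-type cells in sets 1 and 2 and lower in set 3 (1.10 [0.85 to 1.36], 0.53 [0.29 to 0.77] and -0.43 [-0.65 to -0.20]).

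Glia-like cells also held other matrix genes of the list. *Col28a1*, a collagen of peripheral nerve, was at 24.3 (13.3 to 40.7), 109 (72.4 to 157) and 46.2 (25.2 to 77.4) CPM in glia-like cells and at no more than 1.62 CPM in the Dpt-type, Tcf21-type and smooth muscle-like classes. *Col20a1* had 31.2 (18.499 to 49.3), 62.3 (35.6 to 101) and 218 (168 to 277) CPM there. *Tnc* (tenascin C) had 314 (269.8 to 363), 553 (465 to 651) and 155 (114 to 206) CPM against 172, 108 and 2.21 in Dpt-type cells, and *Postn* 1075 (992 to 1163), 903 (790.3 to 1027) and 795 (697 to 902) CPM. *Col27a1*, another fibrillar chain, stood at 26.0 (14.6 to 42.9), 148 (105 to 203) and 152 (111 to 202) CPM in glia-like and 53.6 (46.4 to 61.6), 93.6 (78.1 to 111) and 61.8 (50.9 to 74.4) CPM in Dpt-type cells.

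Over 28 profiles of class by set with at least 30 cells, the genes whose log2(CPM + 5) followed the fibrillar sum most closely, collagens left out, were *Numbl* (Pearson r = 0.929), *Pcolce* (0.928), *Ptn* (0.923), *Tnfaip6* (0.920) and *Chpf* (0.919), of 6408 rows ranked. For the type VI sum they were *Prrx1* (0.937), *Chpf* (0.930), *Lum* (0.928), *Penk* (0.927) and *Ddr2* (0.922). *Pcolce*, *Prrx1*, *Lum* and *Penk* also served as naming markers, so their likeness is partly built in. Among the members, *Col11a1* was the least like the fibrillar sum that contains it (r = 0.733), while *Col6a1* (0.963) was as close to that sum as *Col5a2* (0.956). Profiles of 1 set share a library, and these values describe patterns over classes.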

How the data were processed

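Single-cell libraries of male UGS and of prostate at a pair of postnatal ages were made with a 10x 3′ kit after dissociation with collagenase and TrypLE. Per the labels and the study's methods, reads were counted with Cell Ranger 3.1.0 on mm10 with transgene sequences added. The study removed droplets with multiplets, no cell or a high mitochondrial share. The table deposited by the authors holds natural log values, ln(1 + 10000 × UMIs of a gene / total UMIs of the cell). All 11120281 values above 0 gave whole UMIs within 0.05, so UMIs and cell totals were recovered from them. Of the 9784 gene rows, 1 cut short and 2 sharing a name were left out, and the rows used hold 52.7%, 50.4% and 49.4% of the UMIs of sets 1, 2 and 3. Cell totals summed to 20511786, 15929745 and 27444044 UMIs. No column of another sample was used.

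Cells with at least 200 genes were clustered with Seurat 5.3.0 (R 4.3.3, Matrix 1.6.5) on 2000 features, without the 29 collagen rows, with integration of the sets over 20 dimensions, 27 S and 33 G2M genes regressed, 30 principal components, of which 20 served for neighbours, and resolution 0.5. A cluster was named where at least 3 markers of a type were in at least 10% of its cells and at least 2 times the median cluster, and where that type had most markers among the 10 leading genes by fold (5 CPM added), a rule set after the clusters were seen. Scrublet, in scanpy 1.11.5, called 0.392%, 0% and 0% of cells doublets and no cell was removed. The study's methods describe removal of multiplets, but the larger sets do not match its stated counts, so whether this came before deposit is not shown. Few remaining doublets and a failure of the caller cannot be told apart.

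Rates, shares and log2 ratios of rates were computed with Python 3.11.15, numpy 2.4.6, scipy 1.17.1 and pandas 2.3.3, with exact Poisson or binomial 95% intervals, and figures with matplotlib 3.10.9. Ratios were computed for rows with at least 20 UMIs in both classes together, and the share of all such rows past 2-fold stands beside each first count of members. Sums below 3 UMIs were set to 3 in ratios. The code was tested on simulated data. With 1 library per group there was no test between groups, and since the barcode endings have no key, no ending was assigned to an age. The members and lists were chosen with earlier results of these data known. Named were all members, the naming markers, the pathway genes with the highest fibroblast rates or a 2-fold call against the members, and the 5 genes most like each summed pattern among rows with at least 200 UMIs. The other pathway genes and the leading genes of clusters were named after their values were seen. Alternatives covered resolution, integration, kept collagen rows, depth, thinning, doublet scores, single-cell classing, cell weighting, the deposited scale, minimum UMIs, the fold limit and, added later, subtraction of the epithelium-like rate. Some markers of the glia-like class are not reported here. The kit version is given differently by labels and methods and is not stated here.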

Additional observations from a re-analysis of the deposited data

How the results depend on the processing

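Of 1856 log2 ratios recomputed under alternatives, 8 took the opposite sign where the main interval excluded 0, all for single members. Sign changes of ratios whose main interval included 0 were not counted. Many others moved beyond the counting interval, among them, with unchanged sign, all 12 summed ratios below at resolution 1.0 and 9 of 10 with cells classed singly. The summed fibrillar and type VI ratios of Dpt-type over Tcf21-type and over smooth muscle-like cells stayed above 0 under every alternative that kept the classes. They were also above 0 with classes drawn anew (resolution 1.0, no integration, collagen rows kept, cells classed singly), which compare other cells. No paired analysis was possible because there was 1 library for each group. Values are given in the order of sets 1, 2 and 3 unless a set is named, and their causes were not tested.

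With clusters at resolution 1.0, the fibrillar log2 ratio of Dpt-type cells was 2.81, 2.94 and 2.97 over smooth muscle-like and 1.71, 1.10 and 0.62 over Tcf21-type cells, the type VI ratio was 1.77, 1.24 and 1.97 and 0.95, 0.21 and 0.13, and 5, 2 and 0 members were 2-fold higher than in Tcf21-type cells (7.56%, 4.32% and 5.59% of all rows). *Col6a3* in set 2 then had -0.095. Both comparison classes had changed at this resolution, with 53, 1246 and 1685 smooth muscle-like and 304, 1617 and 1914 Tcf21-type cells. With cells classed singly from markers, the fibrillar ratio was 2.27 and 2.70 over smooth muscle in sets 2 and 3 and 0.93, 0.73 and 0.36 over Tcf21-type cells, the type VI ratio 1.15 and 1.95 and 0.54, 0.19 and 0.065, and 2, 0 and 0 members passed 2-fold over Tcf21-type cells (5.39%, 2.93% and 3.72% of all rows), while set 1 had too few muscle cells for a value. Without integration, set 1 held 0 Dpt-type, 4 Tcf21-type and 5 smooth muscle-like cells, too few for a value. The fibrillar ratio in sets 2 and 3 was then 2.62 and 2.46 over smooth muscle and 1.27 and 0.61 over Tcf21-type cells. Over Tcf21-type cells the type VI ratio was 0.29 and 0.37, and 3 and 0 members passed 2-fold (5.32% and 1.45% of all rows). In set 3 that comparison sets 2672 Dpt-type cells against 30 Tcf21-type cells.

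Thinned to 900 UMIs, the fibrillar ratio was 2.06, 2.27 and 2.64 over smooth muscle and 1.25, 1.00 and 0.58 over Tcf21-type cells, and the type VI ratio 1.26, 1.11 and 1.83 and 0.84, 0.42 and 0.17. With cells of at least 900 UMIs alone, set 3 had 0.61 (fibrillar) and 0.16 (type VI) over Tcf21-type cells. With collagen rows kept for clustering, the fibrillar ratio was 2.30 over smooth muscle in set 1 and 1.17 over Tcf21-type cells in set 2, and 2 members passed 2-fold in set 3 (5.49% of all rows). After removal of the highest 5% of doublet scores, which took a larger share of the glia-like class than of the fibroblast, smooth muscle-like or pericyte-like classes in each set, the fibrillar ratio over smooth muscle was 2.24 and 2.78 in sets 2 and 3 and the type VI ratio 1.93 in set 3. With the epithelium-like rate subtracted, an alternative chosen after seeing the data, the fibrillar ratios were 2.28 and 2.74 over smooth muscle in sets 2 and 3 and 1.08 over Tcf21-type cells in set 2, and the type VI ratio over smooth muscle 1.17 in set 2. At a 4-fold limit, 4, 3 and 6 members passed over smooth muscle (3.52%, 2.21% and 4.82% of all rows) and 0, 0 and 0 over Tcf21-type cells (3.21%, 0.6% and 1.22% of all rows).

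The other sign changes among the 8 counted above all involved glia-like cells. In set 2, *Col1a2* in smooth muscle-like over glia-like cells was 0.0065 without integration, and *Col5a1* in Tcf21-type over glia-like cells was 0.016 without integration and 0.030 with cells classed singly. In set 1, thinning left the 21 glia-like cells few UMIs and gave -0.25 for *Col5a2* and -0.44 for *Col6a3* in Tcf21-type over glia-like cells, -0.38 for *Col11a1* in Dpt-type over glia-like cells and -0.51 for *Col6a3* in smooth muscle-like over glia-like cells. Few UMIs limit *Col11a1* and few cells limit the pericyte-like class and the glia-like class of set 1.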

Other observations

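In set 1 a row named *EGFP* counts a green fluorescent protein reporter. Tcf21-type cells with a UMI of it (129 cells) had less *Col3a1* than those without (73 cells), with a log2 ratio of -0.62 (-0.68 to -0.57), and less of the fibrillar sum, with -0.44 (-0.48 to -0.40). In Dpt-type cells (87 with and 68 without) the ratio was -0.05 (-0.08 to -0.03) for the fibrillar sum and 0.15 (0.08 to 0.22) for the type VI sum. In smooth muscle-like cells (41 with and 61 without) the ratio was 0.19 (0.11 to 0.26) for the fibrillar sum and -0.06 (-0.21 to 0.10) for the type VI sum. Median depths with and without a UMI were 14518 and 14233 UMIs in Tcf21-type, 25698 and 17024 UMIs in Dpt-type and 21787 and 11770.0 UMIs in smooth muscle-like cells. A UMI was also found in 5.26% of 38 leukocyte-like cells (0.644 to 17.7) and 55.7% of 122 epithelium-like cells (46.5 to 64.7), and a cell without a UMI may still carry the reporter, so this is a split by detected UMIs and not by lineage.

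Endothelium-like cells, which line vessels, had 67.4 (52.7 to 85.1), 70.1 (47.3 to 100.03) and 32.5 (21.4 to 47.4) CPM of *Col5a2* in sets 1, 2 and 3. In set 1 their *Col3a1* rate was 54.1 (41.0 to 70.1) CPM, with an interval that overlapped that of *Col5a2*, whereas in sets 2 and 3 *Col3a1* stood at 474 (411 to 544) and 187 (159 to 219) CPM.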
